A study of Mus musculus with 4 samples.

Results

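The 10 Frizzled receptors of the mouse, Fzd1 to Fzd10, were followed across every cell type captured from developing molars, including the endothelium, glia and muscle that surround the tooth. The members were taken by gene symbol, which matched 10 of the 32285 genes counted. Levels are given in CPM, the UMIs of a gene (unique molecular identifiers, each marking 1 captured RNA molecule) per 1000000 UMIs of the cells in question. Over all kept cells the 10 genes summed to 208, 190, 285 and 277 CPM in the E15.5 maxillary, E15.5 mandibular, P1 maxillary and P1 mandibular library. Values for the 4 libraries are given in that order throughout.

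Frizzleds are multi-pass membrane receptors that bind Wnt ligands through a cysteine-rich outer domain. With the co-receptors Lrp5 and Lrp6 they stabilise β-catenin, and with Ror, Ryk and Vangl proteins they act in planar cell polarity and cell movement. By sequence the family falls into the groups Fzd1, Fzd2 and Fzd7, then Fzd3 and Fzd6, then Fzd5 and Fzd8, then Fzd4, Fzd9 and Fzd10. Wnt signals between the dental epithelium, which forms the enamel-secreting ameloblasts, and the neural crest-derived mesenchyme, which forms the dentin-secreting odontoblasts, are needed for tooth buds to grow into molars.

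Maxillary and mandibular molar tooth organs of wild-type mice (genotype WTB6 in the labels) were taken at E15.5 (labelled E15) and shortly after birth (labelled P1, described as P0/P1 in the study design), with 6 tooth organs pooled. All 4 groups were unmanipulated, were dissociated with TrypLE, and were labelled as differing in stage and jaw. Each was labelled as a separate sample, although the P1 libraries shared barcodes, as described below. Each group held 1 library of droplet single-cell RNA sequencing, so no difference between groups had a replicate check, no test was run, and all intervals given are 95% intervals that cover counting error only. The libraries held 10885, 7947, 18707 and 19401 barcodes with 109723360, 86659227, 128812956 and 139873101 UMIs, and 8391, 6031, 13667 and 8156 cells were kept with medians of 9889, 11581, 3949 and 11006.5 UMIs.

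The P1 libraries were not independent of each other. They shared 7131 barcodes, which is 38.1% of the maxillary and 36.8% of the mandibular barcodes, whereas no other pair of libraries shared over 0.643%. The shared barcodes carried more UMIs in the maxillary library (median log2 ratio 2.07), and they were dropped from the mandibular one. Of the 13667 kept P1 maxillary cells, 5787 (42.3%) had a shared barcode, and these included 99.4% of its ameloblasts and 99.4% of its papilla cells but none of its chondrocytes and 2.11% of its neurons. Cells with a shared barcode were deeper, at a median of 12226 UMIs against 2527. They held 54793613 mesenchymal UMIs against 11371906 in the others, and 16274973 epithelial UMIs against 4163904. The summed P1 maxillary levels of these classes thus rest mostly on shared barcodes. Within P1 maxillary mesenchyme, Barx1, a gene of molar mesenchyme, stood at 642 CPM in cells with a shared barcode and 201 CPM in the others, whereas Alx1, a gene of frontonasal mesenchyme, stood at 0.347 and 157 CPM. Hand2, a gene of the mandibular arch, was at 0.073 and 0 CPM in these cells and at 10.2 CPM in P1 mandibular mesenchyme. The P1 maxillary library also held 853 neurons and 378 cells that resembled the sustentacular cells of the olfactory epithelium, which are not cells of a molar. Where a called P1 maxillary ratio between epithelium and mesenchyme, stages or jaws turned direction without the shared barcodes, both values are given. For endothelium, glia and muscle, some levels in P1 maxillary cells without a shared barcode are also given.

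Cells were clustered within each library and each cluster was given a name by the marker genes it carried. All class names stand for such resemblance (epithelium-like, endothelium-like and so on), and the suffix is left out for brevity. Epithelium numbered 725, 103, 2106 and 1414 cells and mesenchyme 4975, 2690, 8077 and 3717. Endothelium numbered 302, 247, 266 and 184 cells, glia 162, 99, 335 and 70, muscle 315, 661, 210 and 384, and pericytes, the contractile cells on small vessels, 90, 85, 167 and 68. Chondrocytes reached the minimum of 50 cells only in the P1 maxillary library, with 115 cells. Unnamed clusters held 1.06%, 4.23%, 0% and 14.3% of the kept cells, and at P1 mandibular they included a cluster led by Stbd1 and Csmd1 and one led by Frem2 and Cyp26a1 that come up for single receptors.

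In the mm10 annotation (GENCODE vM21), Fzd1 (chr5:4753839-4758035, minus strand), Fzd2 (chr11:102604396-102608058, plus), Fzd7 (chr1:59482424-59486955, plus), Fzd9 (chr5:135248938-135251230, minus) and Fzd10 (chr5:128600844-128604093, plus) each have a single exon, as does Fzd8. Fzd4 (chr7:89404355-89413134, plus) and Fzd5 (chr1:64730558-64737751, minus) have 2 exons at most, and Fzd3 (chr14:65192449-65262463, minus) and Fzd6 (chr15:39006034-39038188, plus) up to 7. Fzd3, Fzd5 and Fzd6 overlap other annotated genes, Gm27263 and Gm9086, Gm38058, and Gm26704, and Fzd10os is annotated at the Fzd10 locus. The counts are of 3′ ends and so are not scaled to gene length.

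Promoters of 6 of the 10 genes could be read from RefSeq (GRCm38.p6), as the 250 bases before the start annotated there. These starts do not all match those of the annotation above. The Fzd10 window lies within the gene as given above, and the Fzd9 window lies mostly within its gene. Those of Fzd4 and Fzd5 just reach into theirs. Those of Fzd1, Fzd7 and Fzd4 are shown, because Fzd1 and Fzd7 had like profiles over cell types and Fzd4 a different one. Capitals mark CCAAT or its reverse complement ATTGG, and TATAAA or TTTATA.
Fzd1 promoter, chr5:4758217-4758466, minus strand: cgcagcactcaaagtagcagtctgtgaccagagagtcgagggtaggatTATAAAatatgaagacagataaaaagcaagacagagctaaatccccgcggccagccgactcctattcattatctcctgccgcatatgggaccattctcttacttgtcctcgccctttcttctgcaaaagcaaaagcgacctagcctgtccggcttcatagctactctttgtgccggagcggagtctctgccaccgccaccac
Fzd7 promoter, chr1:59481897-59482146, plus strand: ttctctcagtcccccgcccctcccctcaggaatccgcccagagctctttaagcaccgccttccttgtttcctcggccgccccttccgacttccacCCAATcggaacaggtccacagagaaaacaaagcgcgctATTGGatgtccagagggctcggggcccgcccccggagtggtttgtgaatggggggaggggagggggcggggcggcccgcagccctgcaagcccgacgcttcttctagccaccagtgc
Fzd4 promoter, chr7:89404116-89404365, plus strand: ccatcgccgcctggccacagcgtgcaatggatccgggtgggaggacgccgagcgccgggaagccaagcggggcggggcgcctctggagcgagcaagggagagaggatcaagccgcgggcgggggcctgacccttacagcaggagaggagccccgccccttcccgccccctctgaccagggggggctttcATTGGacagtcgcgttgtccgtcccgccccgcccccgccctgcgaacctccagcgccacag
TATAAA on either strand was found in the Fzd1 window alone of the 6, and in 12.4% of 32851 promoters of this length. CCAAT on either strand was found in the windows of Fzd4, Fzd5 and Fzd7, and in 33.8% of all. The GC-rich hexamer CCGCCC was found on either strand in 5 of the 6, in every window but that of Fzd1, and in 32.7% of all. The Fzd1 window was 51.2% G and C, close to the median of 52.4% over all promoters, against 65.2% for Fzd7 and 72.8% for Fzd4. These are matches of letters and do not show binding.

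Each receptor had its own order of cell types. Mesenchyme had the highest level of Fzd2 in all 4 libraries and of Fzd7 in both P1 libraries, endothelium had that of Fzd4 in all 4, and epithelium or glia had that of Fzd3. Of the 10 receptors, 5 (Fzd1, Fzd4, Fzd6, Fzd8 and Fzd9) had their highest level outside epithelium and mesenchyme in at least 3 of the 4 libraries, but of these 5 only the interval of Fzd4 lay above those of all other classes in every library. For Fzd1 and Fzd8 the interval of the highest class overlapped that of mesenchyme in 2 of those 3 libraries, and for Fzd6 (endothelium) and Fzd9 (muscle) it overlapped that of epithelium in both E15.5 libraries. Mesenchyme is a mixed class. Among single clusters of at least 50 cells, a mesenchyme cluster was highest for Fzd1 in every library, at 74.6, 47.7, 53.7 and 62.1 CPM. The same held for Fzd8 in every library except P1 maxillary. After thinning each cell to 2000 UMIs, or naming each cell by its own markers, the receptors highest outside epithelium and mesenchyme were Fzd3, Fzd4, Fzd6 and Fzd9. Such counts of the highest class were not made over all genes, so 5 of 10 cannot be set against a share of all genes. Most of the 8 or 10 classes of a library lie outside epithelium and mesenchyme, and several are small. As sums over a class, these levels cannot tell fewer expressing cells from less RNA per cell.

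**Figure D1:**
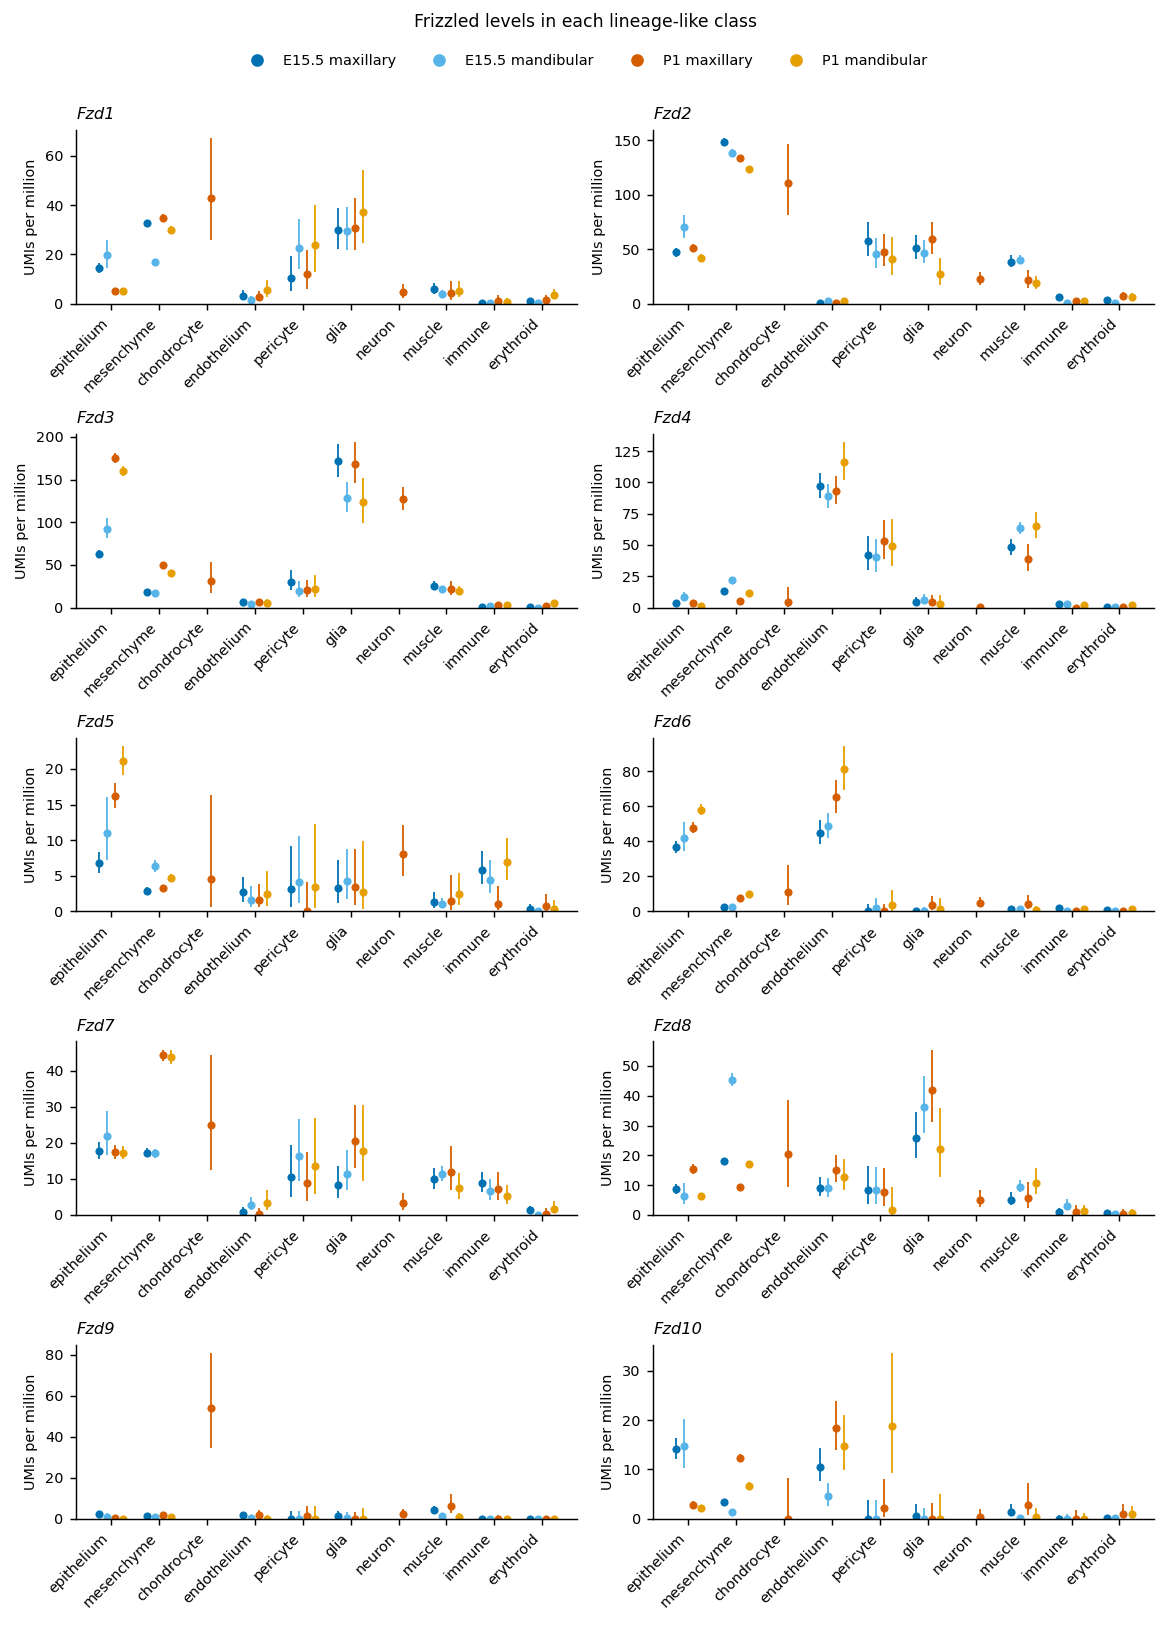
Level of each Frizzled (vertical axis, CPM, from 0) in each lineage class of at least 50 cells, 1 point per library, with exact 95% Poisson intervals as bars. Fzd4 is highest in endothelium, Fzd2 in mesenchyme, Fzd3 in glia or epithelium, and Fzd9 stays low except in P1 maxillary chondrocytes at 54.2 CPM.

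Within the Fzd1, Fzd2 and Fzd7 group, Fzd2 was the most abundant receptor of the mesenchyme. FZD2 is mutated in human omodysplasia, a disorder of the limbs and face. Fzd2 stood at 149 (145 to 152), 139 (135 to 143), 134 (131 to 137) and 124 (120 to 127) CPM in mesenchyme, and at 47.1, 70.6, 51.4 and 42.4 CPM in epithelium. The mesenchymal intervals lay above the epithelial ones in every library. In endothelium it was at 1.06, 2.70, 0.655 and 2.45 CPM, from 4, 10, 2 and 5 UMIs, the lowest of the solid tissues in every library. Pericytes, which lie on the same vessels, were at 57.8, 45.3, 47.4 and 40.9 CPM. Chondrocytes of the P1 maxillary library, at 111 CPM (81.9 to 146), overlapped mesenchyme. Among clusters of at least 50 cells, Fzd2 was highest in the mesenchyme cluster led by Pappa2 and Itgbl1 in the first 3 libraries, at 181, 202 and 165 CPM. In the P1 maxillary library a cluster led by Dpt and Mfap5 was level with it, also at 165 CPM.

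Fzd1 was high in mesenchyme and glia, and in single libraries in other classes. It stood at 32.5, 17.0, 34.9 and 30.1 CPM in mesenchyme and at 29.8, 29.5, 30.8 and 37.1 CPM in glia. The intervals of the 2 classes overlapped in every library except E15.5 mandibular, where glia (21.8 to 39.0) lay above mesenchyme. Among P1 maxillary cells without a shared barcode, however, glia (20.5 CPM, 11.9 to 32.8) lay below mesenchyme (44.8 CPM, 41.0 to 48.9). Pericytes were at 10.5, 22.6, 12.1 and 23.9 CPM, and P1 maxillary chondrocytes, at 42.9 CPM (25.8 to 67.0), were the highest class of that library, with an interval that overlapped those of mesenchyme and glia. In epithelium it was at 14.4 and 19.6 CPM at E15.5 and at 5.19 and 5.21 CPM at P1. Within E15.5 maxillary mesenchyme its highest cluster, at 74.6 CPM, was led by the cell-cycle genes Hist1h1b and Top2a, and the next, at 54.6 CPM, was the Pappa2 and Itgbl1 cluster that also led for Fzd2.

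Fzd7, a receptor known from embryonic and intestinal stem cells, was at close levels in epithelium and mesenchyme at E15.5, with overlapping intervals in both jaws, and higher in mesenchyme at P1. Its levels were 17.3, 17.1, 44.2 and 43.7 CPM in mesenchyme and 17.7, 22.0, 17.4 and 17.3 CPM in epithelium. The mesenchymal values separated by stage, and the epithelial ones did not. In P1 maxillary mesenchyme, however, cells without a shared barcode were at 18.6 CPM and those with one at 49.5 CPM, beside 19.2 and 16.9 CPM in epithelium. At P1 it was highest in clusters led by Grik1, at 72.7 CPM in the maxillary and 76.3 CPM in the mandibular library, and next in the clusters named papilla, at 57.4 and 72.1 CPM. These clusters were led by different genes, Csmd1, Stbd1 and Grm8 in the maxillary and Pcp4, Omd and Dach2 in the mandibular library, and are not a matched pair. Of the maxillary Grik1 cells, 99.7% had a barcode shared with the mandibular library. Endothelium was at or near 0, with 3, 10, 1 and 7 UMIs.

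Fzd3 and Fzd6, both known for planar polarity and Fzd3 also for the guidance of axons, were high in epithelium, and each was also high in a further cell type. Fzd3 stood at 172 (153 to 192), 129 (112 to 147), 169 (146 to 194) and 124 (99.5 to 152) CPM in glia. In epithelium it stood at 63.1, 92.6, 175 and 160 CPM. Glia lay above epithelium at E15.5 in both jaws, and the classes overlapped in the P1 maxillary library and were reversed in order in the P1 mandibular one. Among P1 maxillary cells without a shared barcode, glia (160 CPM, 134 to 190) lay above epithelium (109 CPM, 98.8 to 119). P1 maxillary neurons were at 127 CPM (114 to 141) and endothelium at 6.62, 4.05, 6.22 and 5.38 CPM. Within the P1 epithelium, clusters led by Vwde reached 295 and 310 CPM and ameloblasts, which carried Amelx and Enam, 273 (254 to 294) and 246 (234 to 259) CPM. The unnamed P1 mandibular cluster led by Frem2 was higher still at 324 CPM. At E15.5 a mandibular mesenchyme cluster led by Col8a1 and Plppr1 held 91.3 CPM of Fzd3 from 88 UMIs, close to the 92.6 CPM of that library's epithelium. At P1, oral epithelium marked by Krt13 was at 67.1 and 74.4 CPM, below the ameloblasts in both jaws.

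Fzd6 was a receptor of endothelium and epithelium. It stood at 45.01 (38.5 to 52.3), 48.6, 65.2 and 81.2 CPM in endothelium and at 36.9, 42.0, 47.9 and 58.1 CPM in epithelium. The intervals of these classes overlapped at E15.5, and at P1 the endothelial intervals lay above the epithelial ones in both jaws. Mesenchyme was at 2.37, 2.49, 7.42 and 9.97 CPM, and pericytes, glia and muscle were at or below 4.24 CPM in every library. The ameloblasts held the highest cluster level at P1, 80.1 and 83.9 CPM, from 208 and 494 UMIs. Endothelium was close, with intervals of 56.4 to 74.9 and 69.4 to 94.6 CPM, so counting error leaves their order unsettled. The epithelial marker list summed to 11.1, 2.70, 17.7 and 31.3 CPM in endothelium, against 6129 CPM in the E15.5 maxillary epithelium.

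Among the lineage classes, Fzd4 was highest in endothelium, followed by muscle and pericytes. Fzd4 is the receptor for norrin, and its loss leaves the retina poorly vascularised. Its level in endothelium was 96.9 (87.2 to 107), 88.9 (79.5 to 99.0), 93.4 (82.8 to 105) and 116 (102 to 132) CPM. Muscle followed at 48.2, 63.4, 38.9 and 65.5 CPM, and pericytes at 42.0, 40.1, 52.9 and 49.5 CPM. Endothelium lay above each of these in every library, and the intervals of muscle and pericytes overlapped in every library but E15.5 mandibular, where muscle was the higher. Mesenchyme was at 13.3, 22.2, 5.30 and 11.6 CPM and epithelium at 3.40, 8.16, 3.87 and 1.60 CPM. In the E15.5 muscle, progenitors marked by Pax7 and Msc were at 57.2 and 91.9 CPM, against 4.76 and 14.2 CPM in differentiating muscle. The mandibular progenitors were the highest cluster of that library, close to an endothelium cluster at 90.5 CPM. P1 maxillary muscle without a shared barcode was at 23.5 CPM from 11 UMIs, in place of 38.9 CPM. A mesenchyme cluster of the E15.5 mandibular library, led by Sfrp2 and Rspo2, held 70.9 CPM of Fzd4 from 188 UMIs, above the muscle class of that library. The endothelial marker list summed to 4935, 5054, 5507 and 5823 CPM in endothelium, to 173, 109, 201 and 213 CPM in pericytes and to 22.9, 32.6, 21.9 and 25.4 CPM in muscle. In pericytes its most abundant gene was Esam, and Cldn5 was at 0 at E15.5. In muscle the list was as low as in mesenchyme, where it summed to 33.6, 36.3, 29.2 and 30.5 CPM.

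Fzd9 and Fzd10 were rare. Fzd9, which is known for a role in bone formation, was at or under 6.36 CPM in every named lineage class of at least 50 cells but 1. The exception was P1 maxillary chondrocytes, at 54.2 CPM (34.7 to 80.6) from 24 UMIs. The E15.5 chondrocytes, too few for a class, gave 44.6 and 41.3 CPM over 35 and 26 cells. Differentiating muscle stood at 20.2, 4.94, 23.6 and 3.12 CPM, of which the P1 values rest on 5 and 1 UMIs. In the E15.5 maxillary library an epithelial cluster led by Wfdc18 held 17.9 CPM from 29 of the 30 epithelial Fzd9 UMIs, and in the P1 maxillary library a follicle cluster held 13.5 CPM from 39 UMIs. In the P1 mandibular library a mesenchyme cluster led by the bone genes Bglap and Dmp1, at 4.69 CPM from 14 UMIs, and an osteoblast cluster, at 4.08 CPM from 13 UMIs, were the highest for Fzd9. No immune or erythroid cell thinned to 2000 UMIs held a Fzd9 UMI.

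Fzd10 was higher in epithelium at E15.5 and in mesenchyme at P1. In epithelium it stood at 14.1 and 14.7 CPM at E15.5 and at 2.84 and 2.10 CPM at P1, while in mesenchyme it stood at 3.45, 1.28, 12.3 and 6.61 CPM. The intervals of the 2 classes did not overlap in any library. Among P1 maxillary cells without a shared barcode the order was the other one, with 4.32 CPM in epithelium and 2.64 CPM in mesenchyme, and these intervals overlapped. At E15.5 the highest maxillary cluster was basal epithelium led by Krt15 and Col17a1, at 24.6 CPM (126 UMIs). At P1 the highest were a papilla cluster in the maxillary library, at 27.1 CPM, and the unnamed Stbd1 and Csmd1 cluster in the mandibular one, at 35.3 CPM. Csmd1, Stbd1, Grm8, Alpl, Enpp6, Gfra2 and Tnc were among the leading genes of both, but only the maxillary cluster was named and so counted as mesenchyme. Endothelium held 10.6, 4.59, 18.3 and 14.7 CPM, from 40, 17, 56 and 30 UMIs. Pericytes of the P1 mandibular library were at 18.8 CPM from 11 UMIs, and those of the other libraries held 0, 0 and 2 UMIs. Fzd10os, counted as a gene of its own, stood at 13.2, 17.1, 2.54 and 1.85 CPM in epithelium and at 7.05, 2.59, 21.1 and 12.9 CPM in mesenchyme.

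Fzd5 and Fzd8 differed in where they were highest. Fzd5, a receptor needed for yolk sac vessels and for Paneth cells of the gut, was at 6.72, 11.01, 16.2 and 21.1 CPM in epithelium and at 2.90, 6.32, 3.22 and 4.64 CPM in mesenchyme. At P1 it was concentrated in clusters led by Odam, at 47.4 CPM in the maxillary and 68.1 CPM in the mandibular library, whereas the ameloblasts beside them were at 3.85 and 4.76 CPM. Of the maxillary Odam cells 89.1% had a shared barcode. Immune cells were at 5.83, 4.43, 0.97 and 6.93 CPM, and their intervals overlapped or lay above those of mesenchyme in every library.

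Fzd8 was at 25.9, 36.2, 41.9 and 22.0 CPM in glia and at 18.1, 45.4, 9.55 and 17.0 CPM in mesenchyme. The intervals overlapped in every library except P1 maxillary, where glia was the higher. Within mesenchyme its highest clusters were led by Ebf2 or Grm8, at 61.2 CPM in the E15.5 maxillary, 109 CPM in the E15.5 mandibular and 58.3 CPM in the P1 mandibular library. In the P1 maxillary library the highest cluster was the sustentacular one, at 76.3 CPM (64.3 to 89.8). Ameloblasts, dental epithelium and oral suprabasal epithelium of that library were at 8.09, 8.39 and 7.40 CPM. Its epithelial level of 15.4 CPM includes the sustentacular cluster, and without that cluster the log2 ratio of epithelium to mesenchyme for Fzd8 was −0.05 in place of 0.69.

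**Figure D2:**
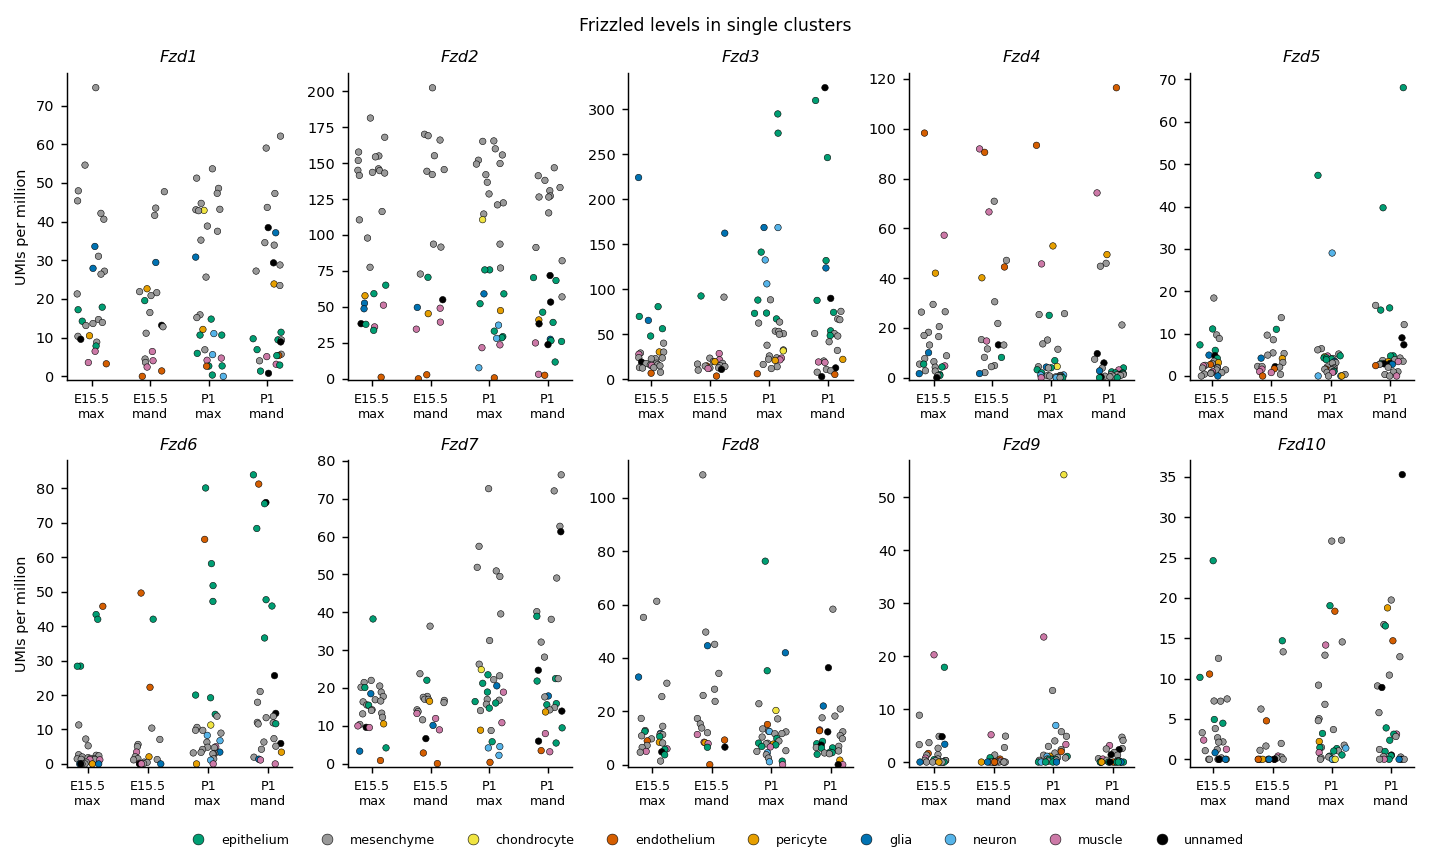
Level of each Frizzled (vertical axis, CPM) in each cluster of at least 50 cells, without the immune and erythroid ones, as 1 point per cluster in 1 column per library, coloured by lineage with unnamed clusters in black. Points are spread sideways at random. Fzd2 is spread over the mesenchyme clusters, whereas single clusters stand out for Fzd5 (Odam, 47.4 and 68.1 CPM at P1) and Fzd9 (chondrocytes, 54.2). Fzd8 is highest in an E15.5 mandibular mesenchyme cluster led by Grm8 (109), and in the sustentacular cluster within P1 maxillary (76.3).

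Put together by cell type, the repertoire of the mesenchyme was led by Fzd2, that of glia by Fzd3 and that of endothelium by Fzd4 and Fzd6. The summed Frizzled level was 258, 268, 302 and 289 CPM in mesenchyme, 215, 288, 335 and 314 CPM in epithelium and 297, 264, 332 and 235 CPM in glia. Endothelium was at 177, 164, 205 and 244 CPM, below mesenchyme and epithelium in every library and below glia in all but P1 mandibular. The sum was lower still in pericytes, at 163, 159, 153 and 177 CPM, and in muscle, at 142, 155, 119 and 131 CPM. Immune cells held 27.9, 19.7, 15.04 and 22.8 CPM and erythroid cells 8.17, 2.41, 13.1 and 21.9 CPM, and both classes serve here as the background. Whether their Frizzled UMIs came from free RNA was not tested.

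**Figure D3:**
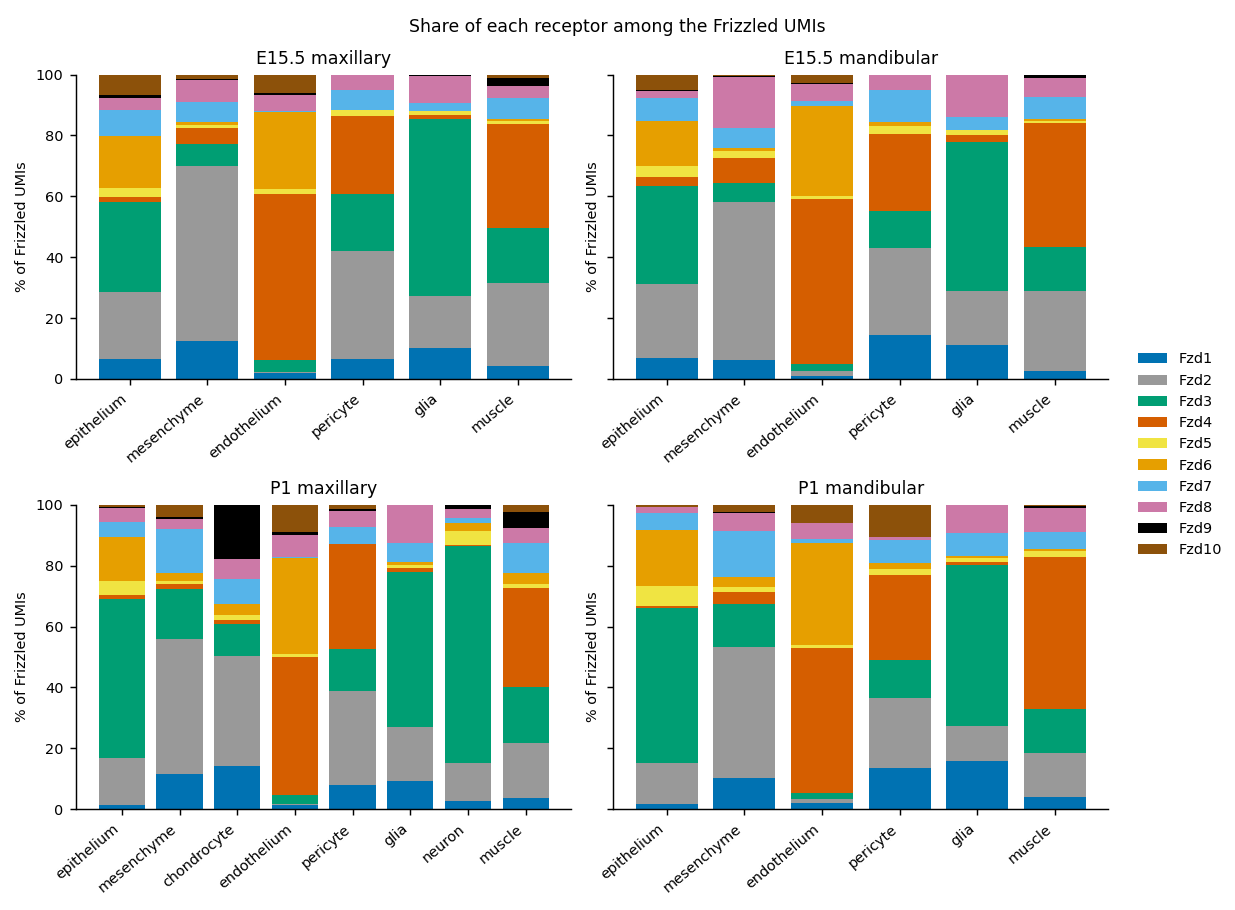
Share of the summed Frizzled UMIs (percent, stacked to 100) taken by each receptor in each lineage class and library. Fzd2 takes the largest part of each mesenchyme bar and Fzd3 of each glia bar, and Fzd4 with Fzd6 fills most of each endothelium bar, at both stages.

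Single cells held few Frizzled molecules. After thinning to 2000 UMIs, 25.9%, 24.5%, 23.4% and 22.7% of mesenchymal cells held a Fzd2 UMI (72.8%, 79.6%, 55.2% and 73.3% unthinned), against at most 0.952% of immune or erythroid cells. For Fzd4 in endothelium the thinned shares were 16.3%, 16.0%, 19.7% and 17.7% (56.3%, 52.6%, 46.2% and 52.7% unthinned, at medians of 9775.5, 9424, 7110.5 and 8262 UMIs), against at most 1.29% in immune or erythroid cells. For Fzd6 in endothelium they were 11.8%, 10.7%, 11.01% and 18.2%, against at most 0.245%. For Fzd3 in glia they were 31.7%, 25.3%, 24.7% and 25.7%, against at most 1.15%. These shares lay above the background classes, whose median depths ranged from 1930 to 14408 UMIs. Fzd7 was closer to its background, with 3.69%, 3.14%, 6.75% and 7.97% in mesenchyme against at most 2.70%. At this depth 60.1%, 59.4%, 56.2% and 55.4% of mesenchymal cells held no Frizzled UMI at all, and 6.31%, 7.04%, 7.42% and 7.94% held UMIs of 2 different receptors. Thinning left out 46, 18, 858 and 27 shallower mesenchymal cells.

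The first comparison asked which receptors separated the epithelium from the mesenchyme. A receptor was called when the classes were at least 2-fold apart, the interval of the log2 ratio left out 0 and either class held at least 10 UMIs, and it was counted when called in the same direction in both jaws. At E15.5, 5 of the 10 Frizzleds were counted, Fzd3, Fzd6 and Fzd10 as higher in epithelium and Fzd4 and Fzd8 as lower, against 17.9% of 17683 genes tested. At P1, 8 of the 10 were counted, Fzd3, Fzd5 and Fzd6 as higher and Fzd1, Fzd2, Fzd7, Fzd9 and Fzd10 as lower, against 24.4% of 18948 genes. The median log2 ratio of the 10 was 0.45 and 0.29 at E15.5 and −0.90 and −1.49 at P1, where that of all genes was −0.07, 0.11, −0.01 and −0.09.

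Fzd6 had the highest ratio of epithelium to mesenchyme in every library. Its log2 ratio of epithelium to mesenchyme was 3.96 (3.67 to 4.25), 4.08 (3.66 to 4.49), 2.69 (2.53 to 2.85) and 2.54 (2.39 to 2.70). That of Fzd3 was 1.77, 2.48, 1.82 and 1.97, past 2-fold in every library. Fzd2 was lower in epithelium in every library, at −1.66, −0.98, −1.38 and −1.54, and only the E15.5 mandibular value missed the 2-fold limit. Fzd1 was at −1.18 and 0.21 at E15.5 and at −2.75 and −2.53 at P1. The lowest ratio at P1 was that of Fzd9, at −3.26 (−5.16 to −1.87) and −4.39 (−9.72 to −1.84), from 4 and 1 epithelial UMIs. The ratio of Fzd10 turned from 2.03 (1.72 to 2.34) and 3.52 (2.86 to 4.16) at E15.5 to −2.11 (−2.52 to −1.73) and −1.65 (−2.15 to −1.18) at P1. Without the shared barcodes the P1 maxillary ratio of Fzd10 was 0.65, that of Fzd7 was 0.11 and that of Fzd5 was 0.78, in place of −2.11, −1.35 and 2.33, and none of these remained counted. Thinning each cell to 2000 UMIs left 2 receptors counted at E15.5, Fzd3 and Fzd6, and the E15.5 mandibular epithelium held only 103 cells. At P1 the same thinning lost Fzd7 and Fzd9. Rare receptors such as Fzd9 and Fzd10 can be lost by thinning through the minimum of 10 UMIs alone, whatever their ratio. Averaging CPM over cells lost Fzd7 at P1, and naming each cell by its own markers lost Fzd7 and added Fzd4.

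**Figure D4:**
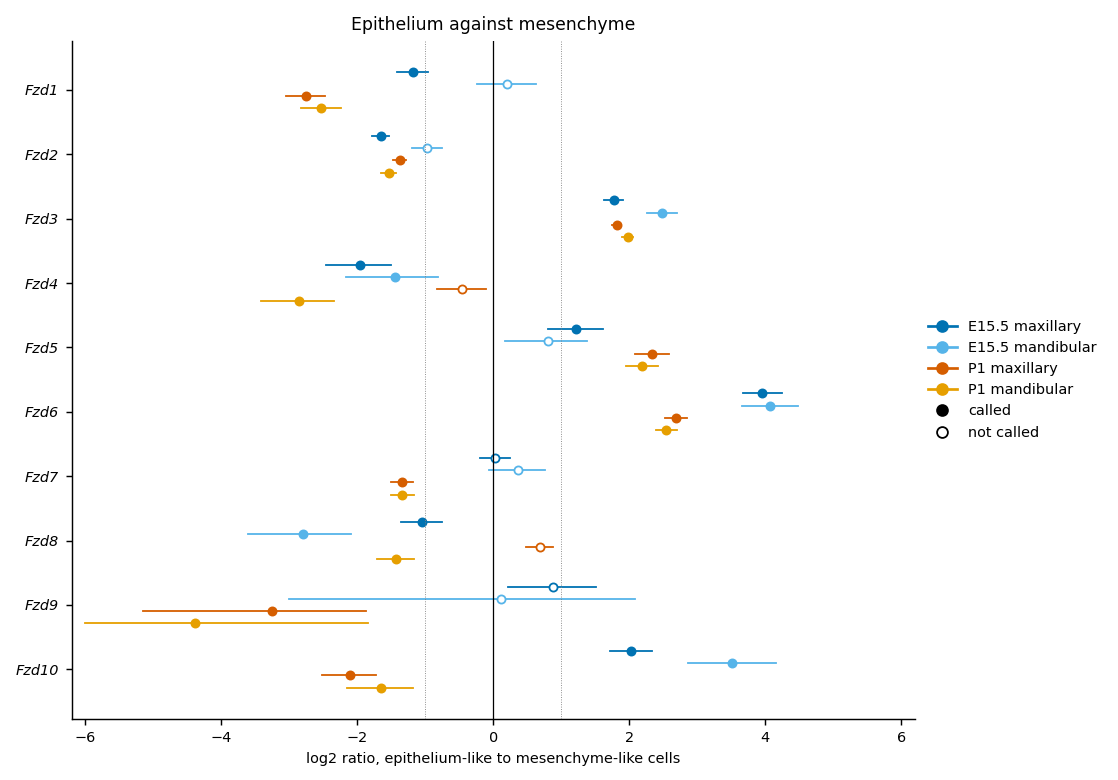
Log2 ratio of epithelium to mesenchyme for each Frizzled, 1 point per library, filled where called, with exact 95% binomial intervals as lines (cut at 6 on either side). Fzd3 and Fzd6 lie above 0 in all 4 libraries, Fzd2 below 0 in all 4, and Fzd10 is above 0 at E15.5 (2.03 and 3.52) and below 0 at P1 (−2.11 and −1.65).

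Endothelium was then set against mesenchyme. At E15.5, 8 of the 10 receptors were counted, with Fzd4, Fzd6 and Fzd10 higher and Fzd1, Fzd2, Fzd3, Fzd7 and Fzd8 lower, against 23.4% of 17583 genes. At P1, 6 were counted, with Fzd4 and Fzd6 higher and Fzd1, Fzd2, Fzd3 and Fzd7 lower, against 20.2% of 18534 genes. The log2 ratio of Fzd4 was 2.87 (2.68 to 3.05), 2.0 (1.81 to 2.18), 4.14 (3.91 to 4.37) and 3.33 (3.10 to 3.55). That of Fzd2 was −7.13 (−9.01 to −5.78), −5.68 (−6.74 to −4.80), −7.67 (−10.72 to −5.82) and −5.66 (−7.28 to −4.43), the lowest of the 10 receptors in every library. Fzd10 was at 1.62, 1.84, 0.58 and 1.15, and the P1 maxillary value was within 2-fold. Among P1 maxillary cells without a shared barcode, Fzd10 stood at 17.1 CPM in endothelium and 2.64 CPM in mesenchyme, which is over 2-fold, and Fzd4 at 95.5 and 14.9 CPM.

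In glia, 3 of the 10 were counted at E15.5 (Fzd3 higher, Fzd2 and Fzd4 lower, against 14.9% of genes) and 3 at P1 (Fzd3 higher, Fzd2 and Fzd7 lower, against 11.7%). The log2 ratio of Fzd3 in glia to mesenchyme was 3.22, 2.96, 1.76 and 1.60. The ratio was lower at P1 than at E15.5 in both jaws, while the glial level itself differed by −0.03 (−0.29 to 0.23) and −0.06 (−0.43 to 0.30) between P1 and E15.5 on the log2 scale. Among P1 maxillary cells without a shared barcode, Fzd7 stood at 20.5 CPM in glia and 18.6 CPM in mesenchyme, so that its lower level in glia was not seen there, and Fzd3 at 160 and 26.3 CPM. In muscle, 7 were counted at E15.5 (Fzd4 and Fzd9 higher, Fzd1, Fzd2, Fzd5, Fzd8 and Fzd10 lower, against 23.2%) and 6 at P1 (Fzd4 higher, Fzd1, Fzd2, Fzd3, Fzd7 and Fzd10 lower, against 16.8%). Fzd4 in muscle was at 1.86, 1.51, 2.87 and 2.50. Among P1 maxillary cells without a shared barcode, the muscle and mesenchyme levels lay within 2-fold for 4 of these 6, at 23.5 and 14.9 CPM for Fzd4, 29.9 and 26.3 CPM for Fzd3, 14.9 and 18.6 CPM for Fzd7 and 2.13 and 2.64 CPM for Fzd10, the muscle values from 11, 14, 7 and 1 UMIs. In pericytes, 2 were counted at E15.5 (Fzd2 and Fzd8 lower, against 8.62%) and 3 at P1 (Fzd4 higher, Fzd2 and Fzd7 lower, against 9.01%). Neurons and chondrocytes, each from the P1 maxillary library alone, could not be compared between jaws. In neurons 7 of the 10 were called, Fzd3 (1.36) and Fzd5 (1.31) higher and Fzd1, Fzd2, Fzd4, Fzd7 and Fzd10 lower, against 34.7% of genes. Only 2.11% of these neurons had a shared barcode, and mesenchyme held 54.6 CPM of Fzd3 with one and 26.3 CPM without. Of the 22 Fzd5 UMIs in neurons, 21 lay in a cluster led by Pomc, with Chga, Chgb and Scg2 among its leading genes. In chondrocytes Fzd9 alone was called, at 4.85 (4.16 to 5.49), against 9.8%. None of the chondrocytes had a shared barcode. Their Fzd9 level was 54.2 CPM, and mesenchyme held 4.75 CPM without a shared barcode and 1.28 CPM with one.

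The second comparison set P1 against E15.5. In mesenchyme, 4 of the 10 receptors were higher at P1 in both jaws, Fzd3, Fzd6, Fzd7 and Fzd10, and none was lower in both. Of 18909 genes, 6.89% were higher in both jaws and 9.43% were counted in either direction. The log2 ratio of P1 to E15.5, maxillary first, was 1.43 and 1.30 for Fzd3, 1.65 and 2.0 for Fzd6, 1.35 and 1.36 for Fzd7 and 1.83 (1.60 to 2.07) and 2.36 (1.93 to 2.82) for Fzd10. The jaws gave like values for each of these receptors. Fzd2, the most abundant, was at −0.15 and −0.17, and Fzd1 was at 0.10 and 0.83. Fzd4 (−1.32 and −0.94) and Fzd8 (−0.92 and −1.42) were lower in both jaws but past 2-fold in 1 jaw each. Fzd7 was not counted after thinning each cell to 2000 UMIs, averaging CPM over cells or naming each cell by its own markers. The last of these settings also lost Fzd3 and Fzd10.

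The mesenchyme compared between stages did not hold the same kinds of cell. Papilla clusters were named at P1 (640 and 326 cells) and at no E15.5 library. When the shared barcodes were left out of both P1 libraries, 0 of the 10 receptors remained counted in mesenchyme. The maxillary ratio was then 0.47 for Fzd3, 0.41 for Fzd6, 0.08 for Fzd7 and −0.46 for Fzd10, in place of 1.43, 1.65, 1.35 and 1.83, and that of Fzd4 was 0.16 in place of −1.32. Within P1 maxillary mesenchyme, the cells with and without a shared barcode were at 54.6 and 26.3 CPM for Fzd3, at 49.5 and 18.6 CPM for Fzd7 and at 14.3 and 2.64 CPM for Fzd10. Fzd2 was at 133 and 139 CPM in the same cells. The part of cell type composition in these differences was not tested.

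In epithelium, 2 receptors were counted, Fzd1 and Fzd10, both lower at P1, against 3.59% of 15753 genes counted as lower and 8.07% in either direction, and 9 of the 10 held enough UMIs in both jaws. The ratio was −1.47 and −1.91 for Fzd1 and −2.31 (−2.77 to −1.88) and −2.80 (−3.48 to −2.12) for Fzd10. The epithelium, too, held different cells at the stages, with ameloblasts at P1 alone (180 and 419 cells) and no named subclass of at least 50 cells in the E15.5 mandibular library. In oral suprabasal epithelium Fzd10 was at 10.1 CPM in the E15.5 maxillary and at 19.0 and 16.5 CPM in the P1 libraries, where it was not lower, and these cells held 36 of the 58 Fzd10 UMIs of P1 maxillary epithelium. Fzd3 was higher at P1, at 1.47 and 0.79, as was Fzd5, at 1.27 and 0.94, each past 2-fold in the maxillary library only. Without the shared barcodes the maxillary value of Fzd5 was −0.56, and that of Fzd1 was −0.30, so that Fzd10 alone remained counted. After thinning each cell to 2000 UMIs, Fzd1 alone remained counted and Fzd10 was lost. Only 93 thinned cells were left in E15.5 mandibular epithelium. The loss of Fzd10 can therefore come from the minimum of 10 UMIs alone and does not show a smaller ratio. Fzd4 was at 0.18 and −2.35, but the maxillary epithelium at P1 held 13.7 CPM of Fzd4 in cells without a shared barcode and 1.35 CPM in those with one, and with the latter alone Fzd4 was counted as lower in both jaws.

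In endothelium, glia and muscle no receptor was counted between the stages. Of the 6 receptors with enough UMIs in endothelium of both jaws, 0 were counted, against 1.96% of 11433 genes. The ratio of Fzd4 in endothelium was −0.05 (−0.28 to 0.17) in the maxillary and 0.39 (0.14 to 0.64) in the mandibular library, and that of Fzd6 was 0.53 (0.23 to 0.84) and 0.74 (0.43 to 1.05). These intervals lie within 2-fold for Fzd4 and reach just past it for Fzd6 in the mandibular jaw. Fzd10 was at 0.79 and 1.68. Of 5 receptors in glia and 7 in muscle, 0 were counted in either, against 0.978% and 2.39% of genes, and Fzd4 in muscle was at −0.31 (−0.76 to 0.12) and 0.05 (−0.21 to 0.30).

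**Figure D5:**
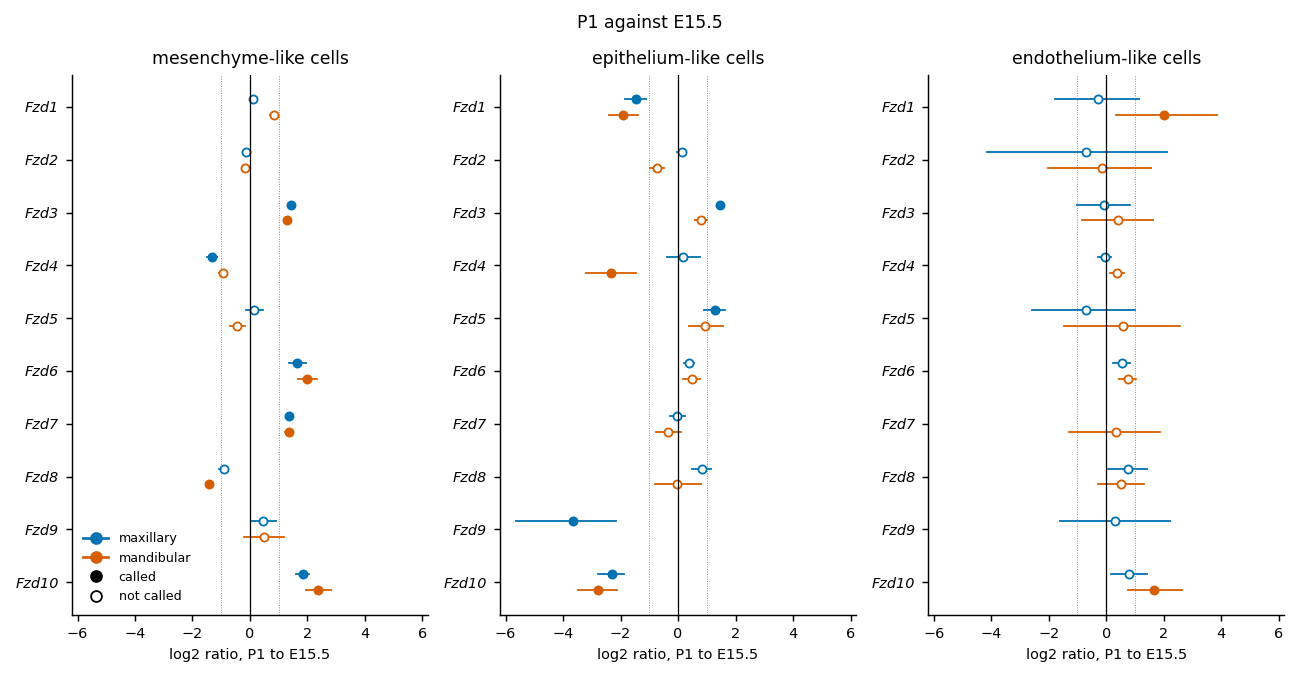
Log2 ratio of P1 to E15.5 for each Frizzled in mesenchyme, epithelium and endothelium, maxillary and mandibular libraries apart, with points filled where called and exact 95% binomial intervals as lines (cut at 6 on either side). Fzd10 is above 0 in mesenchyme (1.83 and 2.36) and below 0 in epithelium (−2.31 and −2.80), and Fzd4 in endothelium is close to 0 (−0.05 and 0.39).

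Between the jaws, no receptor was counted in mesenchyme at both stages, against 2.85% of 18566 genes. The nearest were Fzd8, with a log2 ratio of maxillary to mandibular of −1.33 (−1.44 to −1.22) at E15.5 and −0.83 (−0.98 to −0.68) at P1, and Fzd10, at 1.43 (0.98 to 1.90) and 0.90 (0.71 to 1.09). Fzd4 was at −0.74 and −1.13. Fzd2 (0.10 and 0.12) and Fzd7 (0.02 and 0.02) were nearly equal between the jaws. With the unnamed P1 mandibular clusters placed by best match, among them the Stbd1 and Csmd1 cluster, the P1 value of Fzd10 was 0.29. Without the shared barcodes the P1 value was −1.40 for Fzd10, 0.36 for Fzd4, −1.26 for Fzd7 and −0.35 for Fzd8, while that of Fzd2 was 0.16. In epithelium, Fzd4 was at −1.26 at E15.5 and 1.27 at P1, and Fzd8 was at 0.42 and 1.28, and 0 of 9 receptors were counted, against 1.25% of genes. In the P1 maxillary epithelium Fzd4 stood at 13.7 CPM in cells without a shared barcode and 1.35 CPM in those with one, and Fzd8 at 45.9 and 7.56 CPM, against 1.60 and 6.31 CPM in the mandibular epithelium.

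The other genes of the pathway were given by lists, 76 genes in 9 lists, of which 68 could be compared between epithelium and mesenchyme at E15.5. There 15 were higher in epithelium in both jaws and 17 lower, where 7.99% of all genes were higher and 9.91% lower. At P1 14 were higher and 24 lower of 69, where 9.65% of all genes were higher and 14.7% lower. Of 14 Wnt ligands, 7 were higher in epithelium at E15.5 (among them Wnt3, Wnt4, Wnt6 and Wnt10a) and 2 lower. Of the 6 secreted Wnt-binding antagonists, 5 were lower in epithelium at each stage (Sfrp1, Sfrp2, Sfrp4, Frzb and Wif1). None of the 6 co-receptors Lrp5, Lrp6, Ror1, Ror2, Ryk and Ptk7 and none of the 8 transducers, which include the Dishevelled genes, was counted at either stage. Lrp6, for example, stood at 75.5, 77.9, 90.0 and 86.7 CPM in epithelium and at 90.8, 108, 105 and 107 CPM in mesenchyme, beside the differences in Fzd2, Fzd3 and Fzd6.

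In endothelium, which was high in Fzd4 and Fzd6, 3 of the other pathway genes were higher than in mesenchyme and 37 lower of 65 at E15.5, where 8.39% of all genes were higher and 15% lower. At P1 2 were higher and 34 lower of 66, where 8.18% of all genes were higher and 12.1% lower. Tspan12, the tetraspanin that joins Fzd4 in norrin signalling, was among those higher, at 80.2, 85.1, 111 and 132 CPM in endothelium against 6.89, 4.18, 10.1 and 8.27 CPM in mesenchyme. Ror1 was at 11.1, 5.67, 6.55 and 23.0 CPM in endothelium against 452, 321, 184 and 198 CPM in mesenchyme, and Ror2 at 5.83, 6.48, 4.91 and 13.2 against 199, 133, 148 and 134 CPM. Lrp5 (46.3, 57.5, 72.7 and 94.95 CPM) and Lrp6 (60.1, 75.4, 66.2 and 79.3 CPM) were present beside Fzd4.

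With stage, 12 of 67 genes were higher at P1 and 4 lower in mesenchyme of both jaws, against 6.89% and 2.54% of all genes. These counts were not repeated without the shared barcodes, where none of the Frizzleds remained counted. The 12 included Rspo4, a secreted factor that keeps Frizzleds at the cell surface (8.01 and 6.00 on the log2 scale), the ligands Wnt6 and Wnt10a, the antagonist Dkk1 and the planar polarity genes Vangl2 and Celsr1. Lgr5, Rspo3, Sfrp2 and Wnt16 were lower. In epithelium 6 were higher and 8 lower of 64, against 4.48% and 3.59% of all genes. In endothelium Lef1 (2.31 and 2.69) and Tcf7 (1.71 and 1.86), which encode nuclear partners of β-catenin, were higher while no Frizzled was counted. Of 11433 genes compared in endothelium, 1.96% were counted in either direction. These are counts over libraries without replicates, like those of the receptors.

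Over the 67 profiles of classes and subclasses of at least 50 cells, Fzd2 and Fzd7 (Pearson's r of log2(CPM + 1) 0.80), Fzd1 and Fzd2 (0.78) and Fzd1 and Fzd7 (0.69) were the most alike pairs of the family, and Fzd3 and Fzd4 the least (−0.21). The profiles are not independent, since subclasses lie within lineages and share libraries and depth, so r is a description. Of 13172 genes, those most like Fzd2 were Mdk (0.94), Rab34 (0.90) and Fat1 (0.89), and among those most like Fzd7 were Rab34 (0.84) and Chpt1 (0.82). For Fzd1 they were Col12a1 (0.86), Gpc6 (0.86) and Col16a1 (0.85). For Fzd3 they were Ank3 and Ptprf (0.87 each) and Wwc1 (0.85), and for Fzd6 Susd4 (0.86), Arhgef5 (0.84) and Rassf9 (0.84). Ebf3, Col4a1 and Rhoj (0.81 each) were nearest to Fzd4, and Igf2bp2 (0.80), Sh3d19 (0.80) and Spaca6 (0.78) to Fzd8. The rarer receptors had weaker matches, with Them4 (0.67) for Fzd5, Fgfrl1 (0.63) for Fzd9 and Slc16a9 (0.69) for Fzd10 after Fzd10os (0.83), which shares its locus.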

How the data were processed

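Libraries were made with a droplet kit that reads the 3′ ends of transcripts. The authors deposited, per library, raw UMI counts per gene and barcode, made with Cell Ranger (version 7.0.1 in the matrix headers) against mm10, which the submitters' processing notes also name. The counts had passed the default cell calling of that tool and no other filter that the sources used here describe.

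Barcodes with at least 1000 UMIs were kept, and P1 mandibular barcodes also present in the P1 maxillary library were dropped. Cells above the median mitochondrial share by over 3 median absolute deviations were removed. The automatic threshold of Scrublet marked almost no barcode, so the barcodes with the highest scores were removed at 0.8% per 1000 barcodes. The numbers of cells differ from those the study used, whose doublet caller and filters were others. Each library was clustered on its own (Leiden, resolution 1, 2000 variable genes without Frizzled and other Wnt pathway genes, 40 components, 15 neighbours). A cluster took a name where at least 3 of that name's markers were found in at least 10% of its cells and stood at 0.3 or above between their low and highest cluster levels (0 to 1), and where the mean of that place over the list was at least 0.4 and at least 0.1 above the next name. A cluster led by markers of another name, or very shallow without an own marker among its 10 leading genes, stayed unnamed.

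UMIs were summed per class of at least 50 cells and divided by the class total, as CPM (per 1000000 UMIs). Intervals are exact Poisson for levels and exact binomial for ratios, at 95%. A level of 0 keeps an upper end above 0, such as 3.87 CPM for Fzd10 in E15.5 maxillary pericytes. PCR duplicates were removed through the UMIs, but intervals still cover counting error alone. Ratios were fitted for all genes with at least 10 UMIs in either class. The ratio, call and thinning steps were checked on simulated data. With 1 library in each group no p-value was computed.

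All 10 receptors were named. For each, the 3 genes nearest by Pearson's r of log2(CPM + 1) were sought among genes with at least 20 CPM in some class. Of the Wnt pathway lists, the co-receptors and up to 5 genes per direction and comparison were named. The members and lists were chosen with earlier results of these data known. Proteins were not compared. A few genes that these rules would name are not reported here. Python 3.11.15, scanpy 1.11.5, leidenalg 0.10.2, igraph 0.11.9, numpy 2.4.6, scipy 1.17.1 and pandas 2.3.3 were used.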

Additional observations from a re-analysis of the deposited data

Results flagged for a closer look

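Fzd10 was singled out because the stages differed in opposite directions in epithelium and mesenchyme. Its log2 ratio of P1 to E15.5 in epithelium minus that in mesenchyme was −4.15 in the maxillary and −5.17 in the mandibular libraries. With 1 library in each group the difference was not tested. In the maxillary libraries the mesenchymal ratio was −0.46 in place of 1.83 without the barcodes that the P1 libraries share. In epithelium Fzd10 was no longer counted after thinning each cell to 2000 UMIs, where the minimum of 10 UMIs alone can remove so rare a receptor. In mesenchyme it was no longer counted when each cell was named by its own markers. In oral suprabasal epithelium Fzd10 was at 10.1 CPM in E15.5 maxillary and at 19.0 and 16.5 CPM in the P1 libraries.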

How the results depend on the processing

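No paired test was run. Each group holds 1 library, and stages were compared within each jaw and classes within each library. The 13 other settings and 3 more chosen after seeing the data left 95 recomputed counts of receptors within 1.5 times the main count and moved 14 further. Leaving the shared barcodes out of both P1 libraries gave 5 receptors apart between epithelium and mesenchyme at P1 in place of 8, 0 by stage in mesenchyme in place of 4, and 1 by stage in epithelium in place of 2. The receptor lost in epithelium was Fzd1. The same setting turned 6 called values of the comparisons by epithelium and mesenchyme, stage and jaw, all of the P1 maxillary library. Ratios of glia, muscle, pericytes and endothelium to mesenchyme were not recomputed under it. Of epithelium to mesenchyme, Fzd7 went from −1.35 to 0.11 and Fzd10 from −2.11 to 0.65. Of P1 to E15.5, Fzd4 went from −1.32 to 0.16 and Fzd10 from 1.83 to −0.46 in mesenchyme, and Fzd5 from 1.27 to −0.56 in epithelium. Of maxillary to mandibular mesenchyme, Fzd4 went from −1.13 to 0.36. Values that had not been called also changed sign, such as that of Fzd10 between the jaws at P1, from 0.90 to −1.40. Naming each cell by its own markers gave 1 receptor by stage in mesenchyme (Fzd6), 4 in epithelium and 1 in endothelium, and 2 by jaw. Thinning each cell to 2000 UMIs gave 2 receptors between epithelium and mesenchyme at E15.5 in place of 5, and 1 by stage in epithelium. There Fzd1 was kept and Fzd10 was lost. A limit of 1.5-fold gave 4 by stage in epithelium, 1 in endothelium and 4 by jaw. A minimum of 2000 UMIs gave 1 by jaw in mesenchyme in place of 0, as did keeping in P1 maxillary only the shared barcodes, which was chosen after seeing the data. The cause was not tested in any of these. Leaving out the sustentacular cluster, and giving every cluster its best-matching name, both also chosen after seeing the data, kept each of these counts within 1.5 times. Of the single values, 1364 moved by less than their interval, 254 moved further, and 6 that had been called turned.

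Depth limits Fzd5, Fzd9 and Fzd10 among others, since many of their levels rest on few UMIs. The E15.5 mandibular epithelium, with 103 cells, limits every epithelial ratio of that library. No interval here covers differences between animals, dissections or library preparations.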

Other observations

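Of the pathway genes counted as higher in glia than in mesenchyme in both jaws, Sfrp5, which encodes a secreted antagonist that binds Wnt ligands, had the largest ratio at each stage. It stood at 119 CPM in E15.5 maxillary, 160 in E15.5 mandibular, 89.0 in P1 maxillary and 75.6 in P1 mandibular glia. In mesenchyme it stood at 2.04, 0.906, 0.635 and 0.718 CPM in the same order, and the log2 ratios were 5.87, 7.46, 7.13 and 6.72. Ror2, a co-receptor, went the other way, at −5.49, −5.78, −5.43 and −5.03. Celsr2, a planar polarity cadherin, was also higher in glia, at 2.93, 2.35, 4.09 and 4.05.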
